A study of Mus musculus with 8 samples.

Results

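Immunoglobulin genes were followed here across 8 RNA sequencing libraries of stimulated mouse immune cells. The set holds every feature of the deposited count table that GENCODE release M21 types as an immunoglobulin gene and names Igh, Igk or Igl, with pseudogenes left out. That gave 262 genes of the 52636 features in the table, of which 189 had at least 1 count and 73 had none. They comprise 8 heavy chain constant regions, 17 diversity segments, 4 heavy joining segments, 115 heavy variable segments, the kappa constant region, 5 kappa joining segments, 100 kappa variable segments, and 4 constant, 5 joining and 3 variable lambda genes. Together they took 7234 counts.

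Cells came from spleen and lymph node of mice aged 35 to 55 days that showed no disease signs yet. All groups were cultured for 4 days with anti-CD3 (1 µg/ml), IL-23 (20 ng/ml), TGF-β (4 ng/ml), IL-6 (20 ng/ml) and IL-12 (3 ng/ml), which stimulate T cells toward a mixed TH1/TH17 state. The labels give 4 groups of 2 columns each: TCR1640 females, TCR1640 males, SJL/J females and SJL/J males. TCR1640 mice are known to carry a rearranged T cell receptor transgene for a myelin antigen, bred on SJL/J, and SJL/J mice are the wild-type control. The design asks how males and females differ within each strain, and so also how the strains differ within a sex.

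An antibody joins heavy chains to kappa or lambda light chains. In a developing B cell a variable, a diversity and a joining segment of the heavy chain locus are cut and joined, and the assembled exon is spliced to the mu or delta constant region. Class switching later replaces mu with a gamma, epsilon or alpha constant region, and B cells that become plasma cells transcribe these genes at very high levels. In bulk samples, fewer cells of a type and less RNA per cell cannot be told apart.

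Column totals ran from 3765291 to 5116467 counts. Columns paired within a group agreed to nearly sampling noise (chi-square per degree of freedom 1.05 to 1.077), so they were summed and counted as 1 sample, giving n = 1 per group. Nothing in the labels says that they come from separate mice. The sex labels matched Xist, Ddx3y and Eif2s3y in all 8 columns. The strain labels did not match the T cell receptor segments. Traj43 took 76.9% and 80.3% of alpha joining counts in the female and male libraries labelled SJL/J, against 5.22% and 2.99% in those labelled TCR1640, whereas a receptor transgene would narrow segment use in TCR1640 cells. Every strain direction below is therefore drawn between library labels. The kit is stranded but the strand setting of the counting is not given. Where a noncoding feature overlaps a coding gene from the opposite strand, it outnumbered the coding gene in 645 of 788 cases. Only 4 of the 262 immunoglobulin genes (Ighv1-13, Ighv5-8, Ighv1-62-1 and Iglc3) overlap such a feature, but whether the counts of the others are sense reads could not be determined.

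The heavy joining segments are shown because the largest fitted difference fell on Ighj4. They lie on the minus strand of chromosome 12 (GRCm38), at chr12:113429781-113429833 (Ighj1), chr12:113429468-113429515 (Ighj2), chr12:113429085-113429132 (Ighj3) and chr12:113428514-113428567 (Ighj4). Sequences are from the GENCODE M21 transcripts, with capitals marking the conserved tryptophan, glycine, any residue, glycine codons (TGGGGNNNNGGN, read on the coding strand).
Ighj1: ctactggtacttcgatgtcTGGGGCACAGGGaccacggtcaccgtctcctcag
Ighj2: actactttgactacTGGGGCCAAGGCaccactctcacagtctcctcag
Ighj3: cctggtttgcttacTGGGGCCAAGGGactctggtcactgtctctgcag
Ighj4: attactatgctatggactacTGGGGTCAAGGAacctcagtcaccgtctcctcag
All 4 segments hold the motif, and the transcripts shown are 48 to 54 bases long. The counted Ighj2 gene, with all its transcripts, covers 100 bases, so read positions differ between the segments.

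The IgG subclasses are shown because their counts behaved differently from each other although their sequences are related. These are the first 60 bases of each gene's first exon on the minus strand of chromosome 12, at chr12:113330464-113330523 (Ighg1), chr12:113307874-113307933 (Ighg2b), chr12:113288873-113288932 (Ighg2c) and chr12:113361173-113361232 (Ighg3). Capitals mark bases that differ from Ighg1 at the same position.
Ighg1: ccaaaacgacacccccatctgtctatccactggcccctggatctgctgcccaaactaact
Ighg2b: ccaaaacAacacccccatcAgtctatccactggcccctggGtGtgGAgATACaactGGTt
Ighg2c: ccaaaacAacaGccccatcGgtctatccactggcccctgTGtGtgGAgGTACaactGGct
Ighg3: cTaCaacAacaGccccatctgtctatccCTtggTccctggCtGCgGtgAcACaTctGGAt
Ighg2b, Ighg2c and Ighg3 differ from Ighg1 at 13, 14 and 18 of these 60 bases. Over the whole transcripts, 0.393% of the 50-base stretches of Ighg1 occur in another immunoglobulin gene, 1.58% of those of Ighg3, 4.15% of those of Ighg2b and 5.49% of those of Ighg2c. Ighm, Ighd, Ighe, Igha and Igkc share none. Variable segments are less distinct: 118 of the 182 genes with counts and a stretch of that length share over 10% of it, so counts of single variable segments are uncertain.

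Immunoglobulin transcripts were scarcer in the libraries labelled TCR1640. Their summed level was 140 CPM (counts scaled by library size) in TCR1640-labelled females, 118 in TCR1640-labelled males, 290 in SJL/J-labelled females and 326 in SJL/J-labelled males. The log2 ratio of the TCR1640 over the SJL/J label was -1.06 in females (exact 95% counting interval -1.16 to -0.95) and -1.47 in males (-1.57 to -1.37). Without Ighj4 it was -0.96 and -1.38. Intervals cover counting error only, since with 1 sample a group there is no replicate check. Of the 20 genes with at least 20 counts, 14 had the lower level under the TCR1640 label in both sexes and only Ighd had the higher level in both. Ighv4-1, at 0 counts in TCR1640-labelled females, is counted in neither. A gene could reach 20 counts through its higher groups alone, and the same count was not made over all genes, so it describes only these 20.

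**Figure D1:**
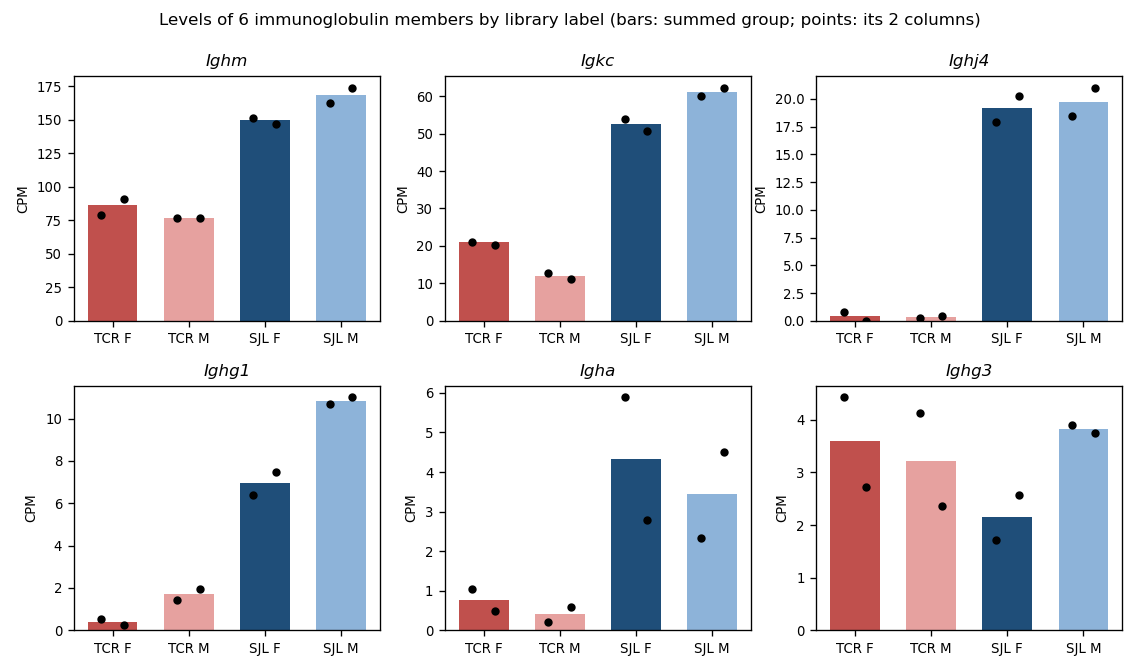
Level in CPM (y axis, from 0, each panel on its own scale) of 6 immunoglobulin genes under the 4 library labels (TCR, TCR1640; SJL, SJL/J; F, female; M, male); bars are summed groups and points their 2 columns. Ighm, Igkc, Ighj4, Ighg1 and Igha stand lower in every TCR1640-labelled column than in every SJL/J-labelled column, whereas the columns of Ighg3 overlap.

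An additive edgeR quasi-likelihood fit with strain label and sex as terms was made on the 4 summed samples. It has 1 residual degree of freedom and the variation from mouse to mouse does not enter its SE or p-values. Of the 262 genes, 13 passed its filter on low counts, and a gene could pass through its higher groups alone, so their count describes only these genes. Ighj4, Igha, Ighv4-1 and Igkv1-110 passed through the SJL/J-labelled groups alone, so a call of theirs could only be lower under the TCR1640 label. At an adjusted p (Benjamini-Hochberg over 17261 genes) under 0.05, 7 of the 13 were called lower under the TCR1640 label and none higher, beside 13.1% of all genes called lower and 13.4% called higher. The median log2 difference was -1.07 over the 13 genes and 0.01 over all genes tested.

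**Figure D2:**
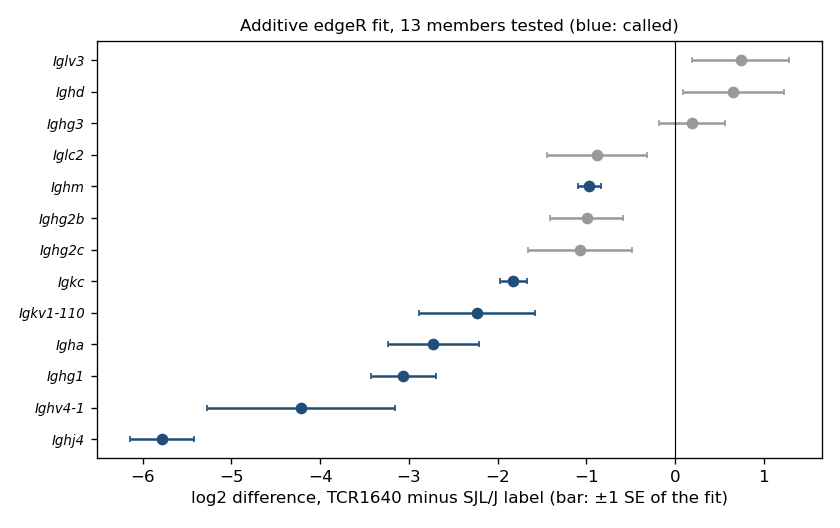
Log2 difference between the TCR1640 and SJL/J labels (x axis) with 1 SE of the additive edgeR fit, for the 13 immunoglobulin genes tested (y axis); blue points were called. The 7 called genes lie between -0.97 (Ighm) and -5.78 (Ighj4), and Ighg3, Ighd and Iglv3 lie above 0 without a call.

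Between single groups, genes were counted as apart at a difference of 2-fold or more, with a counting interval that excluded equality and with at least 50 counts over both groups. A gene could reach that minimum through its higher group alone, as Ighj4 and Ighg1 did through the SJL/J-labelled group in both sexes. The numbers apart therefore describe only the genes that reached it. In females, 5 immunoglobulin genes reached 50 counts. Ighg1, Ighg2b, Ighj4 and Igkc were apart lower under the TCR1640 label and none was apart higher, beside 3.88% of all genes apart lower and 3.65% higher. Only Ighj4 and Igkc stayed apart at a minimum of 100 counts or without either SJL/J-labelled female column, and Ighg2b was lost without either TCR1640-labelled one. In males, Ighg1, Ighj4, Ighm and Igkc of 5 were apart lower and none higher, beside 4.89% and 4.98%. Applied to the 2 columns of a group, the same rule gave 17 to 28 genes of 11200 to 12030 that reached 50 counts. None was an immunoglobulin gene, but only 2 to 4 immunoglobulin genes reached 50 counts there, too few to draw on.

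Ighm (ENSMUSG00000076617, chr12:113418558-113422730, minus strand) encodes the constant region of IgM, the class made first by B cells, and held 3992 of the 7234 counts. It had 303 and 366 counts in the TCR1640-labelled female columns, 372 and 387 in the male ones, 616 and 628 in the SJL/J-labelled female columns and 625 and 695 in the male ones. All 4 TCR1640-labelled columns were below all 4 SJL/J-labelled ones, also in CPM. The log2 ratio was -0.79 in females (-0.93 to -0.66) and -1.14 in males (-1.27 to -1.01), and the additive edgeR fit gave -0.97 (SE 0.13, adjusted p = 2.224e-12). Ighm made up 89.4%, 90.0%, 87.9% and 87.6% of heavy chain constant counts in TCR1640-labelled females and males and SJL/J-labelled females and males. Weighted by exon length, those shares were 90.6%, 91.9%, 90.3% and 89.8%.

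Ighd, which encodes IgD of mature naive B cells, did not follow Ighm. Its counts were 7, 5, 9 and 7 in the TCR1640-labelled columns and 2, 4, 8 and 2 in the SJL/J-labelled ones. The column values overlapped, and edgeR gave a log2 difference of 0.66 (SE 0.57, adjusted p = 0.4335). Its share of heavy constant counts was 1.60% (95% exact binomial interval 0.832 to 2.79) and 1.90% (1.09 to 3.06) under the TCR1640 label, and 0.424% (0.156 to 0.920) and 0.664% (0.319 to 1.22) under the SJL/J label.

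Ighg1 (ENSMUSG00000076614), the constant region of IgG1, had the largest fitted difference among the constant regions. In males alone, Igha (log2 ratio -3.09, on 4 counts) and Ighg2c (-3.25, on 2 counts) stood lower than Ighg1. It had 2 and 1 counts in the TCR1640-labelled female columns, 7 and 10 in the male ones, 26 and 32 in the SJL/J-labelled female columns and 41 and 44 in the male ones. All TCR1640-labelled columns were lower. The log2 ratio was -4.17 in females (-6.49 to -2.55, on 3 counts) and -2.66 in males (-3.51 to -1.90). In edgeR it was lower by label (log2 difference -3.06, SE 0.37, adjusted p = 3.939e-15).

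Igha (ENSMUSG00000095079), the constant region of mucosal IgA, had 4, 2, 1 and 3 counts in the TCR1640-labelled columns against 24, 12, 9 and 18 in the SJL/J-labelled ones, with no overlap. Its log2 difference was -2.72 (SE 0.51, edgeR adjusted p = 1.889e-06). Igha passed the filter through the SJL/J-labelled groups alone, so this call could only be lower under the TCR1640 label. Ighe, for IgE, had no count under the TCR1640 label and 1 count in each SJL/J-labelled group, too few for a comparison.

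The other IgG subclasses did not pass the test. Ighg2b had 10, 8, 3 and 10 counts against 16, 25, 13 and 6. Its columns overlapped, and edgeR gave -0.997 (SE 0.41, adjusted p = 0.05638). It was called in 5 of the alternative fits, with adjusted p between 0.02522 and 0.04071 in those. Ighg2c had 4, 8, 1 and 1 counts against 4, 8, 7 and 8, with the low values in TCR1640-labelled males only (edgeR -1.07, SE 0.59, adjusted p = 0.1752). Ighg3, an IgG subclass known for responses to carbohydrate antigens, had 17, 11, 20 and 12 counts against 7, 11, 15 and 15. These overlapped (edgeR 0.20, SE 0.37, adjusted p = 0.7576).

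The make-up of the switched isotypes differed between labels beyond counting error, in both sexes. The intervals of their joint share overlapped in females and just missed each other in males. Switched constant regions (gamma, epsilon and alpha) made up 8.96% (7.01 to 11.2) and 8.07% (6.32 to 10.1) of heavy constant counts in TCR1640-labelled females and males. They made up 11.7% (10.09 to 13.5) and 11.8% (10.2 to 13.5) in SJL/J-labelled females and males. Within them, Ighg1 took 4.48% (0.933 to 12.5) of 67 counts and 25.0% (15.3 to 37.0) of 68 under the TCR1640 label. Under the SJL/J label it took 34.9% (27.7 to 42.7) of 166 counts and 48.0% (40.5 to 55.6) of 177. Ighg3 took 41.8% (29.9 to 54.5) and 47.1% (34.8 to 59.6) under the TCR1640 label, against 10.8% (6.55 to 16.6) and 17.0% (11.7 to 23.3). Ighg3 thus held more of the switched counts than Ighg1 under the TCR1640 label and fewer under the SJL/J label, in both sexes. Without the first male column labelled TCR1640 the Ighg3 share there was 33.3%, and without the second 62.5%.

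**Figure D3:**
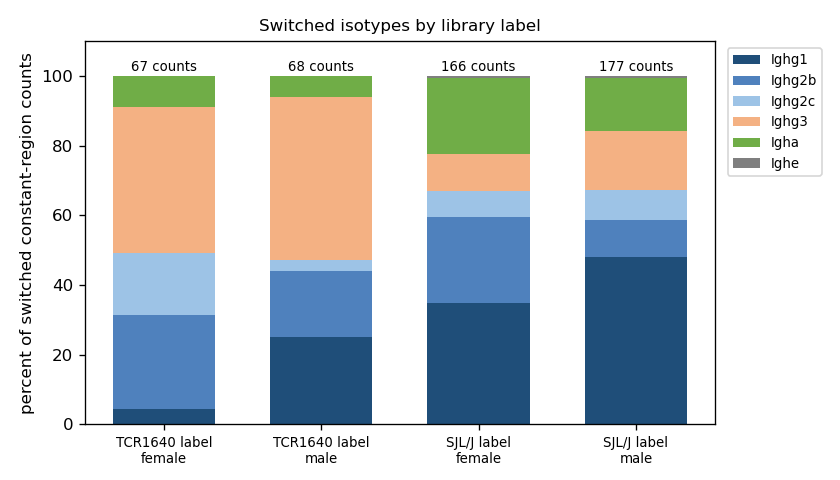
Share of each switched constant region in the switched heavy chain counts (y axis, percent) for the 4 library labels, with the number of counts above each bar. Ighg3 takes 41.8% and 47.1% under the TCR1640 label and Ighg1 34.9% and 48.0% under the SJL/J label.

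Igkc (ENSMUSG00000076609, chr6:70726435-70726966, plus strand), the only kappa constant region, showed a larger label difference than Ighm. It had 81, 82, 62 and 57 counts in the TCR1640-labelled columns (females first) and 220, 217, 231 and 249 in the SJL/J-labelled ones. The 2 sets were far from overlapping, and TCR1640-labelled males were lowest. The log2 ratio was -1.32 in females (-1.59 to -1.06) and -2.35 in males (-2.65 to -2.06), and edgeR gave -1.82 (SE 0.16, adjusted p = 3.776e-29). The ratio of Ighm to Igkc counts was 4.10 (3.45 to 4.90) and 6.38 (5.25 to 7.81) in TCR1640-labelled females and males. It was 2.85 (2.55 to 3.18) and 2.75 (2.48 to 3.06) in SJL/J-labelled females and males. In each of the 4 TCR1640-labelled columns that ratio (3.74 to 6.79) exceeded every SJL/J-labelled column (2.71 to 2.89).

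Lambda light chains were rare, with 62 constant region counts. Iglc2, which shares 7.65% of its 50-base stretches with another gene (most with Iglc3), held 44 of them. It had 3, 4, 4 and 5 counts in the TCR1640-labelled columns and 12, 6, 6 and 4 in the SJL/J-labelled ones (edgeR -0.88, SE 0.57, adjusted p = 0.2645). Iglc3, which overlaps 2010309G21Rik on the opposite strand, had 10 counts, Iglc1 had 8 and Iglc4 none. The lambda share of light chain constant counts was 6.86% (3.59 to 11.7) and 7.75% (3.78 to 13.8) under the TCR1640 label and 5.21% (3.36 to 7.65) and 3.23% (1.86 to 5.19) under the SJL/J label. These intervals overlap.

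Counted by variable segments, the lambda share was larger than by constant regions under the TCR1640 label. Its intervals stood apart between labels in females and overlapped in males. It was 21.8% (13.2 to 32.6) and 19.7% (11.5 to 30.5) of light chain variable counts under the TCR1640 label, against 5.06% (2.21 to 9.73) and 7.47% (4.04 to 12.4). This rests on Iglv3, with 5, 11, 7 and 8 counts against 4, 1, 8 and 4. Its columns overlapped (edgeR 0.74, SE 0.55, adjusted p = 0.3443), while kappa variable segments had 61 and 61 counts under the TCR1640 label against 150 and 161. Iglv1 had 4 counts and Iglv2 had 1.

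Ighj4 (ENSMUSG00000076618) had 3 and 0 counts in the TCR1640-labelled female columns, 1 and 2 in the male ones, 73 and 87 in the SJL/J-labelled female columns and 71 and 84 in the male ones. The 2 sets of columns were far apart. The ratio of TCR1640 over SJL/J label was -5.64 in females (-7.93 to -4.06) and -6.03 in males (-8.32 to -4.46) on the log2 scale, each on 3 counts against 155 or more. edgeR gave -5.78 (SE 0.36, adjusted p = 1.194e-53), a value that depends on its prior at so few counts. Since Ighj4 passed the filter through the SJL/J-labelled groups alone, this call could only be lower under the TCR1640 label. Against Ighm, whose gene begins 5783 bases downstream, Ighj4 had 0.00448 (0.000922 to 0.0132) and 0.00395 (0.000813 to 0.0116) counts per Ighm count under the TCR1640 label. Under the SJL/J label it had 0.129 (0.108 to 0.152) and 0.117 (0.0988 to 0.139). The Ighj4 difference was thus larger than that of Ighm in both sexes, beyond counting error.

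The other joining segments, which share the motif shown above, had few counts. Ighj2 had 15 in all, Ighj1 11 and Ighj3 2. Ighj4 made up 91.4% and 95.7% of heavy joining counts in SJL/J-labelled females and males, but only 3 of 4 and 3 of 8 counts under the TCR1640 label. Without the first female column labelled TCR1640, its share of all immunoglobulin counts there was 0%, against 0.277% with both columns. The 17 diversity segments had no count in any column.

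Heavy variable segments took 586 counts over 88 of the 115 genes, with 69 and 110 counts in TCR1640-labelled females and males and 206 and 201 in SJL/J-labelled ones. As a class they stood lower under the TCR1640 label, with log2 ratios of -1.48 (-1.89 to -1.08) in females and -1.21 (-1.56 to -0.87) in males. Kappa variable segments had 433 counts over 76 of 100 genes and log2 ratios of -1.20 (-1.65 to -0.76) and -1.74 (-2.19 to -1.31). Both classes stood on the same side of 0 as the summed constant regions (-0.82 and -1.18 for the heavy chain).

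Single segments held few counts. The 10 heavy variable segments with the most were Ighv6-3 (39), Ighv2-2 (32), Ighv9-3 (23), Ighv1-7, Ighv4-1 and Ighv5-17 (22 each), Ighv1-23 and Ighv14-2 (18 each), Ighv5-4 (17) and Ighv1-9 (16, as many as Ighv5-6). Ighv6-3 had 4, 8, 5 and 5 counts under the TCR1640 label and 3, 6, 2 and 6 under the SJL/J label. It had the highest heavy variable count, alone or tied, in each TCR1640-labelled column. Its log2 ratio was 0.52 in females (-0.85 to 1.94) and -0.02 in males (-1.51 to 1.53). Intervals of Ighv9-3, Ighv1-7 and Ighv5-17, also on few counts, likewise spanned 0 in both sexes. Ighv4-1, by contrast, had 0, 0, 1 and 0 counts against 5, 6, 2 and 8. Against a floor of 3 counts it was at least 3.42-fold lower in TCR1640-labelled females, and in males the log2 ratio was -3.66 (-9.10 to -0.85, on 1 count). edgeR called it (adjusted p = 0.0005676) and DESeq2 did not (adjusted p = 0.1466). It passed the filter through the SJL/J-labelled groups alone, so a call could only be lower under the TCR1640 label. Ighv2-2 had 0, 2, 1 and 2 counts against 6, 4, 8 and 9, with no overlap, and was not tested by edgeR because it did not pass the filter.

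By family, Ighv1, the largest, took 40.6%, 36.4%, 40.3% and 41.3% of heavy variable counts in TCR1640-labelled females and males and SJL/J-labelled females and males. These shares lay within each other's counting intervals. The Ighv6 family took 21.7% (12.7 to 33.3) and 16.4% (10.0 to 24.6) under the TCR1640 label and 6.80% (3.77 to 11.1) and 4.48% (2.07 to 8.33) under the SJL/J label. The Ighv6 counts themselves were 15 and 18 against 14 and 9.

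**Figure D4:**
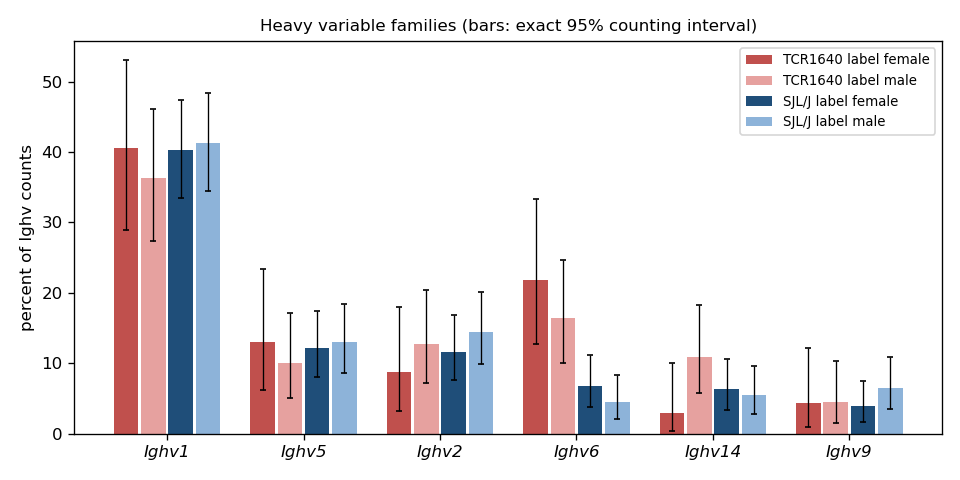
Share of heavy variable counts (y axis, percent) of the 6 families with the most counts (x axis) under the 4 library labels, with exact 95% counting intervals. The Ighv1 shares lie between 36.4% and 41.3%, and the Ighv6 shares are 21.7% and 16.4% under the TCR1640 label against 6.80% and 4.48%.

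The kappa variable segments with the most counts were Igkv1-110 (39), Igkv6-13 (26), Igkv1-117 (20), Igkv14-111 (19), Igkv10-96 and Igkv19-93 (17 each), Igkv6-15 (16), Igkv17-121 (15), and Igkv1-135 and Igkv17-127 (11 each). Igkv1-110, which shares 50.9% of its 50-base stretches with another segment (most with Igkv1-117), had 4, 1, 1 and 1 counts under the TCR1640 label and 12, 8, 5 and 7 under the SJL/J label. Its columns did not overlap. edgeR gave a log2 difference of -2.23 (SE 0.65, adjusted p = 0.004055), and DESeq2 did not call it (adjusted p = 0.2774). Igkv1-110 also passed the filter through the SJL/J-labelled groups alone.

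Use of the variable segments was compared as a whole by the total variation distance between segment shares (0, same shares; 1, none in common), which rises as counts fall. Between single columns of 2 groups, a comparison added after seeing the data, it was 0.451 to 0.726 for heavy segments, and between the 2 columns of a group 0.410 to 0.652. For kappa segments it was 0.426 to 0.763 between groups and 0.397 to 0.772 within them. The ranges overlapped widely, so these counts do not separate groups from columns by this measure. Between summed groups the distance was 0.440 to 0.519 for heavy and 0.405 to 0.590 for kappa segments.

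The effective number of segments (1 divided by the sum of squared shares) also rises with the number of counts. For heavy segments it came to 18.4, 28.1, 40.0 and 32.9 in TCR1640-labelled females and males and SJL/J-labelled females and males, and corrected for sampling to 24.7, 37.5, 49.5 and 39.1. The corrected TCR1640-labelled female value was 37.4 in the first column alone and 17.0 in the second. For kappa segments the corrected values were 52.3, 27.7, 27.5 and 37.9, so TCR1640-labelled females were lowest for heavy and highest for kappa segments. The corrected kappa value of TCR1640-labelled males was 18.45 in the first column alone and 45.1 in the second.

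Between the sexes, no immunoglobulin gene was called. Of the 13 tested in the additive edgeR fit, 0 were higher and 0 lower in males, beside 0.139% of all genes higher and 0.962% lower. The fit has a sex term shared by both labels, so sex differences of opposite sign under the labels offset each other in it. At an unadjusted p under 0.05 there were 2 of 13: Ighg1, with a male minus female log2 difference of 0.88 (SE 0.34, edgeR adjusted p = 0.2664), and Ighg2b, with -0.94 (SE 0.41, edgeR adjusted p = 0.3979). DESeq2 also called 0, with 0 at an unadjusted p under 0.05. Within the TCR1640 label, 3 genes reached 50 counts and none was apart, beside 0.526% of all genes apart higher in males and 1.10% lower. Within the SJL/J label, 6 genes reached 50 counts, none was apart higher and Ighg2b was apart lower in males (log2 ratio -1.02, -1.89 to -0.21), beside 0.501% higher and 0.758% lower. Ighg2b lost this with any of the 4 SJL/J-labelled columns left out, since fewer than 50 counts then remained or the fold was under 2.

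The small male to female ratios pointed in opposite directions under the 2 labels. Summed immunoglobulin counts had a male over female log2 ratio of -0.24 (-0.36 to -0.12) under the TCR1640 label and 0.17 (0.09 to 0.25) under the SJL/J label. Ighm stood at -0.17 (-0.33 to -0.02) and 0.17 (0.06 to 0.28), and Igkc at -0.81 (-1.16 to -0.46) and 0.22 (0.03 to 0.41). Ighg1 was higher in males under both labels, at 2.15 (0.36 to 4.56, on 3 female counts) and 0.64 (0.14 to 1.15).

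**Figure D5:**
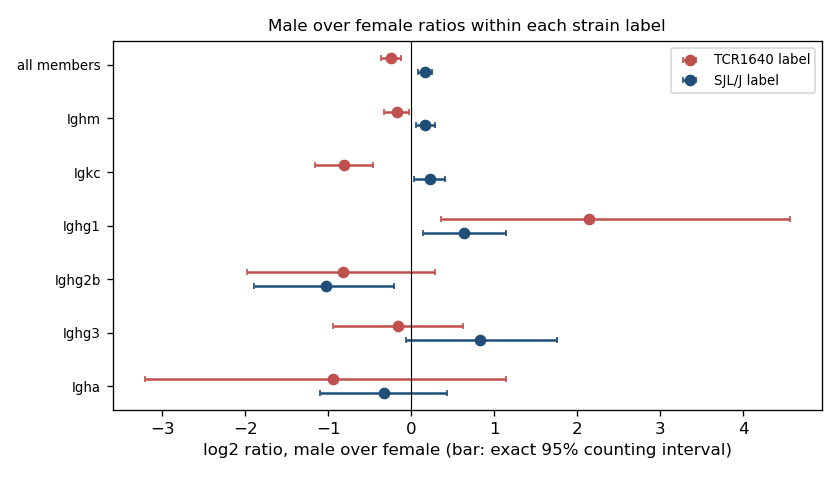
Male over female log2 ratio (x axis) with exact 95% counting intervals for summed immunoglobulin genes and 6 constant regions (y axis), within the TCR1640 label (red) and the SJL/J label (blue). Summed genes, Ighm and Igkc lie below 0 under the TCR1640 label and above 0 under the SJL/J label, and Ighg1 lies above 0 under both.

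Other B lineage genes did not all share the direction of the immunoglobulin genes. Of 20 B cell identity genes, none was at 0, 16 were tested, and in edgeR 6 were higher (Cd79a, Cd79b, Bank1, Pax5, Pou2af1, Cd72) and 2 lower (Btk, Cd22) under the TCR1640 label, with a median log2 difference of 0.30. Over all genes tested 13.4% were higher and 13.1% lower, so the 2 lower genes are near that background. The 16 genes of the list without opposite-strand overlap summed to 74.5 and 72.8 CPM under the TCR1640 label and 53.6 and 59.2 under the SJL/J label. Cd79a and Cd79b encode the signalling chains that pair with membrane immunoglobulin. Cd79a had 114, 93, 110 and 132 counts under the TCR1640 label and 60, 66, 54 and 68 under the SJL/J label, with no overlap, and was higher in edgeR (log2 difference 0.73, SE 0.17, adjusted p = 0.0001809). Cd79b had 18, 26, 34 and 33 counts against 2, 5, 10 and 5 (log2 difference 2.18, SE 0.38, edgeR adjusted p = 2.088e-07). Ms4a1, a surface marker of B cells, was low everywhere (0 to 5 counts a column). Per Cd79a count there were 3.23 and 3.14 Ighm counts under the TCR1640 label and 9.87 and 10.8 under the SJL/J label, and 0.787 and 0.492 against 3.47 and 3.93 Igkc counts.

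Of 16 plasma cell genes, 12 were tested and edgeR called 6 lower (Jchain, Creld2, Sdc1, Ell2, Txndc5, Xbp1) and 1 higher (Pim2), beside 13.1% of all genes lower and 13.4% higher, with a median log2 difference of -0.25. The 14 without opposite-strand overlap summed to 264 and 261 CPM against 284 and 278. Jchain, the chain that joins IgM pentamers and IgA dimers, had 8, 5, 2 and 2 counts under the TCR1640 label and 15, 21, 32 and 35 under the SJL/J label, with no overlap (log2 difference -2.68, SE 0.41, edgeR adjusted p = 1.417e-09). The defining receptor gene Tnfrsf17 had 0 counts in all TCR1640-labelled columns and at most 1 elsewhere. Irf4 and Prdm1, which activated T cells also express, were not called (log2 differences -0.12 and -0.09), nor was Mzb1 (0.35). Of 10 mast cell and basophil genes, 9 were tested, with 8 lower and 1 higher (Kit), none was at 0, and the list summed to 66.0 and 70.6 CPM under the TCR1640 label against 108 and 128. In these lists too a gene could pass the filter through its higher groups alone, as Mcpt8, Prss34 and Cma1 did through the SJL/J-labelled ones. Of 15 T cell genes, 8 were higher (Cd8a, Cd8b1, Cd3d, Cd3e, Cd3g, Lat, Trbc1, Trbc2) and 3 lower (Cd4, Cd28, Trac), and none was at 0. Among these genes, Cd8a and Cd8b1 had the largest fitted differences. The 13 without overlap summed to 1849 and 1982 CPM against 1484 and 1645. Of 10 myeloid genes, 7 were tested, with 3 lower (Ccr2, Cybb, Lyz2) and none higher, and none was at 0. The median log2 difference of those tested was 0.17. The 9 without overlap summed to 51.0 and 37.9 CPM against 68.9 and 78.4, with Ccr2 the largest part in each group. Under the TCR1640 label the T cell sum was thus higher, unlike the immunoglobulin sum, and the mast cell and myeloid sums were lower. Single genes of the T cell and myeloid lists went both ways in the fit. The plasma cell sum was only slightly lower. The part of these lists in the result was not tested.

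Of 30 genes that assemble and switch immunoglobulin loci, 22 were tested, 4 were higher under the TCR1640 label in edgeR (Dntt, Vpreb3, Icosl, Pms2), 4 were lower (Batf, Exo1, Dclre1c, Rif1), and the median log2 difference was -0.01. Both counts are close to the shares over all genes (13.4% and 13.1%). The recombinase genes Rag1 and Rag2 had at most 2 counts in a column, and the surrogate light chain genes Vpreb2 and Igll1 had none. Vpreb1, the other surrogate light chain gene, had 14 to 30 counts a column but overlaps Top3b on the opposite strand. Of 10 germinal centre genes, 1 was at 0, 5 were tested and 3 were higher (Basp1, Bcl6, Fas). Of the genes named from these lists, Pax5, Cd72, Cd22, Ell2, Txndc5, Cd3e, Dclre1c, Rag2, Vpreb1 and Bcl6 overlap exons of an opposite-strand gene and are uncertain. Between sexes, no gene of these lists was called.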

How the data were processed

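The deposited table gives unnormalized whole counts by Ensembl identifier for 8 columns, from libraries made with a stranded kit from 500 ng of RNA, per the labels' protocols. Per the submitters' processing notes, the tools were HTSeq, Bowtie2 and bcl2fastq 2.17 and the build was mm10. How strand was treated, and which annotation was counted, is not given in the sources used here. Groups came from the sample titles. Names, positions and transcript sequences came from GENCODE M21 (GRCm38), where 147 of 52636 identifiers had no match. The reference is the genome of another inbred strain than SJL/J, and what that does to the counts of variable segments was not tested.

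Members, lists and rules were chosen with earlier results of these data known. The 2 columns of a group were summed. edgeR 4.0.16 under R 4.3.3 fitted strain label plus sex (TMM, filterByExpr, quasi-likelihood F test, Benjamini-Hochberg, two-sided, threshold 0.05) and was tested on simulated data. CPM use TMM-scaled totals. Group ratios and shares have exact (Clopper-Pearson) 95% intervals of counting error only, and a group at 0 was set to a floor of 3 counts. Named genes are all constant regions, the 10 most counted variable segments of each class, the 4 most counted joining segments, and genes apart between groups. Genes of other lists were singled out after their values were seen. Alternatives were RLE and upper-quartile scaling, TMM without overlapping genes, 2 other filters, DESeq2 1.42.0, limma-voom (limma 3.58.1), 8 columns with and without a replicate block, other count minimums and leaving out each column. Single values of 2 genes of these lists are not reported here.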

Additional observations from a re-analysis of the deposited data

Results flagged for a closer look

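The male over female difference pointed in opposite directions under the 2 strain labels, with counting intervals on opposite sides of equality, for summed immunoglobulin genes, Ighm and Igkc. With 1 sample a group the difference between labels was not tested. The TCR1640-label log2 ratio minus the SJL/J-label one was -0.41 for the summed genes, -0.35 for Ighm and -1.03 for Igkc. Igkc had 163 counts in females and 119 in the deeper male library under the TCR1640 label, and 437 and 480 under the SJL/J label.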

How the results depend on the processing

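With 1 sample a group, low counts limit every value here. The number of genes called between strain labels was 7 as reported, 5 with DESeq2, 9 without a filter, 7 to 8 with a column left out and, in fits added after seeing the data, 4 on the number 1 columns alone and 5 on the number 2 columns alone, where 6 were tested. With the 8 columns as replicates it was 6, and 6 with the replicate block, which left the immunoglobulin counts as they were and moved those over all genes from 3347 and 3202 to 3278 and 3165 by strain label and from 381 and 788 to 252 and 621 by sex. The columns share only a number, and no pairing is given in the labels. Over all genes, edgeR called 2305 higher and 2267 lower, DESeq2 664 and 746, and the 8 columns as replicates 3347 and 3202. No immunoglobulin gene was called between sexes in any of these fits. In each, all calls were lower under the TCR1640 label. Genes apart between labels in females numbered 7 at a count minimum of 20 (Iglv3 being higher), 2 at 100, and 2 to 3 with a column left out. Between sexes, the number was 1 at a minimum of 20 under the TCR1640 label (Ighg1), and under the SJL/J label 0 at 100 and 0 with any column left out. Ighg3 took 33.3% to 62.5% of switched counts in TCR1640-labelled males, and Ighj4 0% to 0.587% of all immunoglobulin counts in TCR1640-labelled females, with a column left out. Counted per exon length (added after seeing the data), the Ighm share was 90.3% and 89.8% in SJL/J-labelled females and males, and the switched share 6.20% in TCR1640-labelled males and 9.31% and 9.485% in SJL/J-labelled females and males. By variable segments, the lambda share was 21.8% and 19.7% under the TCR1640 label and 7.47% in SJL/J-labelled males. Except for counting per length, with fewer samples or at other minimums, the cause was not tested.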

Other observations

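Receptors that bind immunoglobulin were also read. Of 15 such genes, 8 were tested and edgeR called 2 higher under the TCR1640 label (Fcgrt and Trim21) and 3 lower (Fcer1a, Fcer1g and Ms4a2). Over all genes tested, 13.4% were called higher and 13.1% lower. Fcer1a and Fcer1g passed the filter through the SJL/J-labelled groups alone, and Fcgrt through the TCR1640-labelled ones. Their calls could therefore only take the direction they took. Fcer1a, Fcer1g and Ms4a2 encode the 3 chains of the high-affinity IgE receptor of mast cells and basophils, and their log2 differences were -4.39, -5.01 and -3.07 (edgeR adjusted p = 3.377e-07, 4.478e-11 and 2.654e-15). Under the TCR1640 label, Fcer1a and Fcer1g had 0 or 1 counts in each column, against 10 to 12 and 8 to 21 under the SJL/J label. Fcgrt, the neonatal Fc receptor that recycles IgG, stood at 2.95 (edgeR adjusted p = 7.689e-05). It had 7, 13, 10 and 14 counts under the TCR1640 label against 1, 1, 0 and 3. Trim21, a cytosolic IgG-binding ubiquitin ligase, stood at 0.96 (edgeR adjusted p = 2.798e-05). Fcgr2b, the inhibitory IgG receptor, was not called (-1.07, edgeR adjusted p = 0.05157) and overlaps exons of an opposite-strand gene.

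Kappa joining segments had 36 counts in all, 16 of them on Igkj1 and 15 on Igkj2. They numbered 2, 7, 2 and 4 in the TCR1640-labelled columns and 1, 2, 11 and 7 in the SJL/J-labelled ones, so the male over female log2 ratio was 2.67 (0.90 to 5.08) under the SJL/J label, on 3 female counts. Lambda joining segments had 2 counts.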
